A study of Mus musculus with 6 samples.

Results

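The Schlafen (Slfn) genes were examined in donor hematopoietic stem and progenitor cells (HSPCs) recovered from irradiated recipients 6 h after bone marrow transplantation (BMT). The family was taken as the 7 genes Slfn1, Slfn2, Slfn3, Slfn4, Slfn5, Slfn8 and Slfn9, found by symbol among the 24965 genes for which expression was deposited. All 7 were listed, and all 7 passed the filter of an FPKM (fragments per kilobase of exon and per 1000000 fragments) above 1 in at least 1 library. Bone marrow of WT or Hemgn-/- donors (CD45.2+) had been injected into CD45.1+ recipients given a split dose of 9 Gy, and CD45.2+ cells that were negative for lineage markers and positive for Sca-1 were sorted, 3 libraries for each donor genotype. The study's methods add c-Kit to this sort, which the sample labels leave out. For all its experiments the study gives young adult mice of both sexes, with WT littermates matched for sex, age and weight. The sex of the donors of each library is not given. The Hemgn-/- animals were C57BL/6 mice with a small frameshift deletion in the coding sequence, made by a zinc finger nuclease. The deletion was in every cell of the body, and the recipients were not mutant. The recipients' Hemgn genotype and the stated radiation dose were therefore the same for both groups. Whether the environment differed between recipients was not tested. The methods call the libraries biological replicates but do not say how many recipients each one held.

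Schlafen proteins take their name from the German word for sleep, because the first members were found as genes that change as thymocytes mature and T cells leave quiescence. All share an amino-terminal core related to RNA-cleaving domains, and several members bind or cut tRNA and rRNA. The short members, Slfn1 and Slfn2, hold little more than this core, Slfn3 and Slfn4 carry an added linker region, and Slfn5, Slfn8, Slfn9 and Slfn14 also carry a carboxy-terminal helicase-like domain. Many Schlafen genes are induced by interferons. In mice, loss of Slfn2 function makes T cells and monocytes leave quiescence and die, and Slfn4 is known as a myeloid gene that falls as macrophages mature.

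The coding sequences separated the members by length as these classes do. The longest annotated coding sequence held 337 codons for Slfn1 and 378 for Slfn2, 602 for Slfn4 and 640 for Slfn3, 884 for Slfn5 and 910 for both Slfn8 and Slfn9. Slfn3 and Slfn4 were identical at 93.2% of 1761 aligned coding bases, and Slfn8 and Slfn9 at 92.7% of 2733. Slfn1 and Slfn2 were farther apart, at 72.6% of 988 bases, and Slfn5 matched no other member at more than 68.8%. Stretches of 100 bases shared with another Schlafen transcript made up 3.38% of those of Slfn8 and 3.71% of those of Slfn9, most of them shared with the pseudogene Slfn10-ps. The share was at most 0.13% for each of the other 5 members.

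The promoter sequences also fell into 2 kinds, and the stretch that holds the difference is shown for each gene because interferon-induced genes commonly carry an interferon-stimulated response element (ISRE). From RefSeq (GRCm38.p6) the bases from 180 to 31 before the gene start were taken, on the strand of the gene and written 5′ to 3′. In the genes encoding long proteins, capitals mark the core of the ISRE, searched as GAAANNGAA and, on the other strand, TTCNNTTTC. Slfn5 lies at chr11:82951922-82952071 on the plus strand, Slfn8 at chr11:83020841-83020990 and Slfn9 at chr11:82991861-82992010 on the minus strand.
Slfn5: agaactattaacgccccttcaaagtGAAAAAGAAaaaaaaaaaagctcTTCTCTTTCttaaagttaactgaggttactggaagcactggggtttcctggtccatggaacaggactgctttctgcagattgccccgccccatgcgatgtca
Slfn8: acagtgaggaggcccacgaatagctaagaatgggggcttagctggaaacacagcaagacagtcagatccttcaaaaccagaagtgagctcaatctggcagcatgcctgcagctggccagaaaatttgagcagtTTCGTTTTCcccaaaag
Slfn9: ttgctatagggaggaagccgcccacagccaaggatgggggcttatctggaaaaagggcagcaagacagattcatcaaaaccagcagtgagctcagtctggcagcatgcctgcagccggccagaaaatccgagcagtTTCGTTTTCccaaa
In the genes encoding short and intermediate proteins, capitals mark CTTCCTGG, an element noticed after these windows had been read and searched on both strands (the other strand reads CCAGGAAG). Slfn1 lies at chr11:83116640-83116789, Slfn2 at chr11:83064932-83065081, Slfn4 at chr11:83175006-83175155 and Slfn3 at chr11:83191150-83191299, all on the plus strand.
Slfn1: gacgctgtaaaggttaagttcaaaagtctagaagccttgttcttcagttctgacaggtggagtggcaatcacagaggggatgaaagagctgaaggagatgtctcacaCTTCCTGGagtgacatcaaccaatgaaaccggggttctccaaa
Slfn2: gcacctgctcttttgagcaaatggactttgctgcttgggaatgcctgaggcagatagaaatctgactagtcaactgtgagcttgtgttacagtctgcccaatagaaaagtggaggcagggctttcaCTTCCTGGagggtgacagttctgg
Slfn4: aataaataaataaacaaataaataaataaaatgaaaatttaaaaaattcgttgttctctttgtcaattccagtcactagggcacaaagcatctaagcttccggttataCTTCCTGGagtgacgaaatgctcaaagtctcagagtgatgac
Slfn3: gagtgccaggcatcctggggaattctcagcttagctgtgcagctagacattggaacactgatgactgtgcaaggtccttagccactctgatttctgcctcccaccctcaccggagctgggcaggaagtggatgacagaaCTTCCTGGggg

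Over the whole promoter window of 300 bases (250 before the start and 50 after), the ISRE core was found in Slfn5 at bases -155 and -132, in Slfn8 at -47 and in Slfn9 at -44, counted to the first base of the match. It was not found in the windows of Slfn1, Slfn2, Slfn3 and Slfn4. Of all 32851 promoter windows of this length, 8.56% held it. CTTCCTGG started at base -73 in Slfn1, -54 in Slfn2, -72 in Slfn4 and -41 in Slfn3, and 4.12% of all windows held it on either strand. It was picked from these windows, so the share of all windows cannot serve as a test of it. For Slfn1 alone, the bases after the RefSeq start were not found near the start of a GENCODE transcript of the gene. The Slfn1 window shown lies before the GENCODE start of the gene, at 83116849. That of Slfn5 lies inside the GENCODE gene, which starts at 82951349, so it is not upstream of every annotated transcript. A gamma-activated site (GAS), an element found in genes induced by IFN-γ, was searched as TTCNNNGAA and matched none of the 7 windows, against 8.30% of all windows. The matches of different motifs did not overlap each other, and a match describes letters and not binding. Slfn8 has 2 RefSeq windows, of which the first was used.

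**Figure D1:**
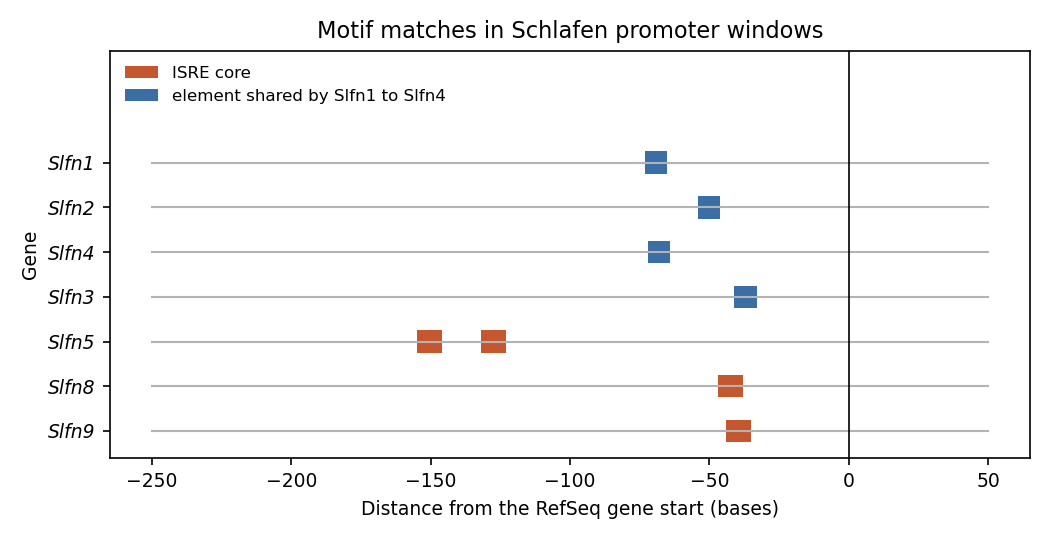
Matches of the ISRE core (orange) and of the element shared by Slfn1 to Slfn4 (blue) in the promoter window of each Schlafen gene, by distance from the RefSeq gene start in bases. Orange bars lie in Slfn5, Slfn8 and Slfn9 and blue bars in the other 4 genes, and no window holds both.

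In WT libraries 1, 2 and 3, Hemgn, the gene disrupted in the donors, had FPKM values of 5.64, 2.96 and 4.68, against 0.755, 0.913 and 1.60 in Hemgn-/- libraries 1, 2 and 3, without overlap. The log2 fold change, Hemgn-/- minus WT on log2(FPKM + 1), was -1.37 (SE 0.23, adjusted p = 0.0114 by limma, adjusted by Benjamini-Hochberg). Without WT library 3 the adjusted p was 0.0503, and over all alternatives it ranged from 0.00586 to 0.0613. Depth was 23668015 to 27716574 fragments in WT and 26175076 to 28897360 in Hemgn-/- libraries. HSPC markers were present but low, with Kit at 5.50 to 7.24 FPKM and Cd34 at 7.22 to 11.9 FPKM over the 6 libraries. Their summed level over 14 markers was 125 to 133 FPKM in WT and 157 to 163 FPKM in Hemgn-/- libraries, most of it from the pan-leukocyte gene Ptprc, at 87.1 to 88.9 FPKM and 102 to 113 FPKM. Of the 12 HSPC markers tested, 2 were higher (Ptprc and Cd34) and 0 lower, against 4.37% and 2.09% of all genes tested. The summed level of 14 neutrophil markers was far higher, at 75227 to 80622 FPKM in WT and 48882 to 54823 FPKM in Hemgn-/- libraries, which does not match the labelled lineage-negative sort. In bulk RNA, fewer cells of a type and less RNA per cell cannot be told apart.

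Schlafen RNA was abundant in these libraries, and 3 genes made up nearly all of it. The libraries also held neutrophil and B cell transcripts at levels that do not match the labelled lineage-negative sort. Which cells the Schlafen RNA came from was not tested. Slfn4 had the highest level of the family and ranked 55 among the 24965 genes by mean FPKM, ahead of Slfn2 at rank 128 and Slfn1 at rank 156. Slfn8 ranked 960, Slfn5 2635, Slfn9 7425 and Slfn3 10711. FPKM is a level per length, so these levels can be set beside each other. Each of the 6 libraries gave the same order, Slfn4, Slfn2, Slfn1, Slfn8, Slfn5, Slfn9 and Slfn3. Slfn2 and Slfn1 were the only neighbours in this order whose ranges over the libraries overlapped, with Slfn2 at 1.10 to 1.40 times Slfn1.

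In donor cells lacking Hemgn, 3 members rose and none fell. Slfn5, Slfn8 and Slfn1 were higher at an adjusted p under 0.05, which is 3 of 7 members against 4.37% of all 13739 genes tested (600 higher) and against 2.09% that were lower. Slfn5 and Slfn8 also passed the study's thresholds of p under 0.05 and 1.5-fold, which 4.10% of all genes passed in this direction. The count at the adjusted p was 2 without WT library 1 or WT library 3, 1 without Hemgn-/- library 3 and 0 when eBayes was run without a trend, and the count at 1.5-fold was 1 without WT library 1. Values above 0 on the log2 scale were found for 7 of 7 members, as it was for 63.0% of all genes tested. The median was 0.30 over the members and 0.09 over all genes. Members whose 3 Hemgn-/- libraries all lay above the 3 WT libraries numbered 5 of 7, against 19.2% of all genes.

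**Figure D2:**
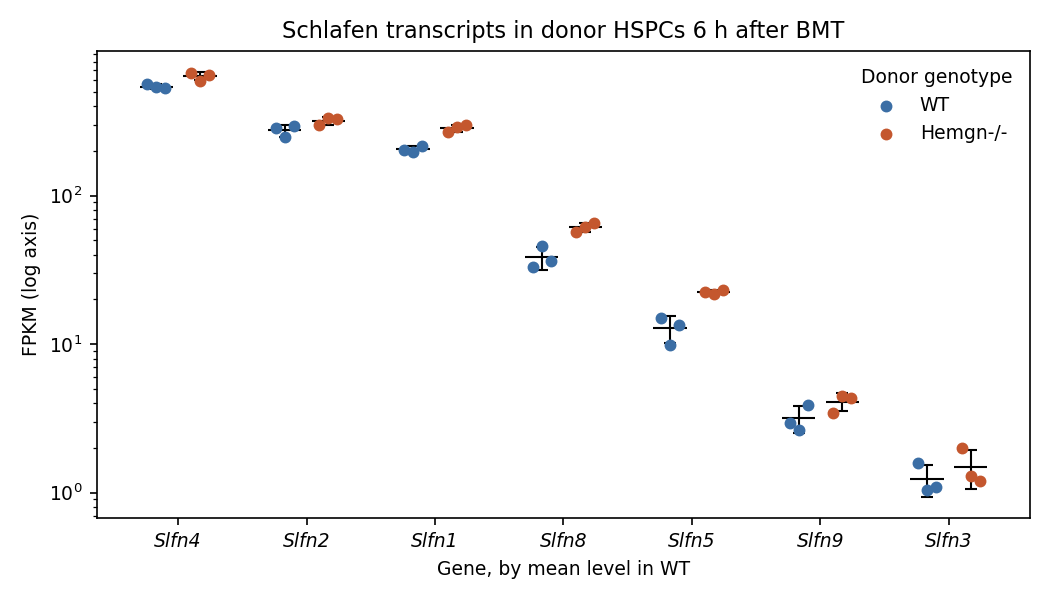
FPKM (log axis) of the 7 Schlafen genes, ordered by mean level in WT, with 1 point per library, a line at the mean and bars for the SD (n = 3). The WT and Hemgn-/- points do not overlap for Slfn1, Slfn2, Slfn4, Slfn5 and Slfn8, and they overlap for Slfn9 and Slfn3.

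Slfn5, a nuclear member with the helicase-like domain, had the largest fold change of the family. Its FPKM was 15.0, 9.93 and 13.5 in WT libraries 1, 2 and 3, against 22.4, 21.7 and 23.2 in Hemgn-/- libraries 1, 2 and 3. Every Hemgn-/- library was above every WT library, WT library 2 was the lowest, and the Hemgn-/- libraries lay close together. The means were 12.8 ± 2.60 FPKM in WT and 22.4 ± 0.755 FPKM in Hemgn-/- (SD, n = 3), a ratio of 1.75. This gave a log2 fold change of 0.78 (95% confidence interval 0.46 to 1.10, adjusted p = 0.0141 by limma, adjusted by Benjamini-Hochberg). Without Hemgn-/- library 3 it was 0.75 and the adjusted p from limma was 0.0663, and with all 24965 genes in place of those that passed the filter it was 0.0569. The antisense gene Slfn5os overlaps Slfn5 and held 0 fragments in 5 libraries and 1 fragment in the sixth.

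Slfn8, another long member, was at 32.9, 46.0 and 36.4 FPKM in WT and at 57.0, 61.8 and 65.2 FPKM in Hemgn-/- libraries. WT library 2 was the highest of its group but still below every Hemgn-/- library. Its means were 38.4 ± 6.79 FPKM and 61.3 ± 4.11 FPKM (SD, n = 3), a ratio of 1.60 and a log2 fold change of 0.67 (95% confidence interval 0.39 to 0.95, adjusted p = 0.0151 by limma, adjusted by Benjamini-Hochberg). This call was close to the threshold: the adjusted p from limma was 0.0501 without WT library 1, 0.0584 without WT library 3, 0.0548 without Hemgn-/- library 2 and 0.0721 without Hemgn-/- library 3.

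Slfn9, the near copy of Slfn8, was present at a much lower level. It was at 2.97, 2.65 and 3.90 FPKM in WT and at 3.45, 4.48 and 4.37 FPKM in Hemgn-/- libraries. WT library 3 lay above Hemgn-/- library 1, so the groups overlapped. Its log2 fold change was 0.30, with a 95% confidence interval from -0.06 to 0.65 (adjusted p = 0.330 from limma), an interval that holds both no change and a rise beyond 1.5-fold. The pseudogene Slfn10-ps, which lies beside Slfn8, was at 3.31, 4.53 and 2.41 FPKM in WT and at 4.10, 6.02 and 5.43 FPKM in Hemgn-/- libraries, with a log2 fold change of 0.50 (adjusted p = 0.194 from limma). Since reads of Slfn8, Slfn9 and Slfn10-ps can be exchanged between them, their fragments were also summed. The sum was 164, 220 and 181 fragments per 1000000 in WT and 269, 301 and 312 fragments per 1000000 in Hemgn-/- libraries. These values did not overlap, and the log2 ratio of the means was 0.64. Slfn8 supplied most fragments, at 3182 to 7706 per library, against 404 to 754 for Slfn9 and 242 to 571 for Slfn10-ps. The sum therefore largely follows Slfn8 and is not a separate result.

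Slfn1, a short member first described for slowing the growth of T cells, combined a high level with the smallest SE of the fold change (0.07) among the members that rose. It was at 203, 196 and 216 FPKM in WT and at 267, 288 and 298 FPKM in Hemgn-/- libraries. The 2 groups were separated by more than the range within WT. The means were 205 ± 9.74 FPKM and 284 ± 15.6 FPKM (SD, n = 3), a ratio of 1.39 and a log2 fold change of 0.47 (95% confidence interval 0.32 to 0.62, adjusted p = 0.00542 by limma, adjusted by Benjamini-Hochberg). It stayed past the threshold when any 1 library was left out, and under all other alternatives but eBayes without a trend, where the adjusted p from limma was 0.0651.

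Slfn2, the short member needed for T cell and monocyte quiescence, was at 284, 247 and 294 FPKM in WT and at 298, 333 and 327 FPKM in Hemgn-/- libraries. The groups did not overlap, but the highest WT and the lowest Hemgn-/- library were nearly equal. Slfn2 had a log2 fold change of 0.22 (95% confidence interval 0.03 to 0.40, adjusted p = 0.167 from limma), which was 0.14 without WT library 2. The antisense gene Gm20234 overlaps Slfn2 and was at 3.67 to 5.45 FPKM, and whether counting used the strand is not given in the sources used here, so reads of the pair cannot be told apart. In every WT library Slfn1 was at 0.714 to 0.797 of the level of Slfn2, and in every Hemgn-/- library at 0.865 to 0.911. These ratios did not overlap, and their difference was not tested.

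Slfn4, the myeloid member, was at 564, 537 and 527 FPKM in WT and at 672, 594 and 652 FPKM in Hemgn-/- libraries. All 3 Hemgn-/- libraries were above all 3 WT libraries, with means of 543 ± 18.9 FPKM and 639 ± 40.8 FPKM (SD, n = 3). Its log2 fold change was 0.23 (95% confidence interval 0.09 to 0.38, adjusted p = 0.0728 from limma), which missed the threshold. It was 0.29 without Hemgn-/- library 2, where the adjusted p from limma was 0.0482. The fold changes of Slfn4 and Slfn2 depended on the scaling. After each library was rescaled to TPM, which gives all libraries 1 total, both passed, with adjusted p-values from limma of 0.0306 and 0.0435. After median-ratio scaling they were 0.13 and 0.12, with adjusted p-values from limma of 0.326 and 0.490, and after quantile normalization 0.13 and 0.20, with 0.360 and 0.225.

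Slfn3, the close relative of Slfn4, was at 1.57, 1.04 and 1.09 FPKM in WT and at 1.99, 1.30 and 1.20 FPKM in Hemgn-/- libraries. These values stand for 91 to 186 fragments per library, the groups overlapped, and the log2 fold change was 0.15 (95% confidence interval -0.30 to 0.61, adjusted p = 0.700 from limma). Although Slfn3 and Slfn4 lie side by side and are close in coding sequence, Slfn4 was 338 to 545 times as high in FPKM over the 6 libraries. Exact stretches of 100 bases were not shared by the transcripts of these 2 genes.

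**Figure D3:**
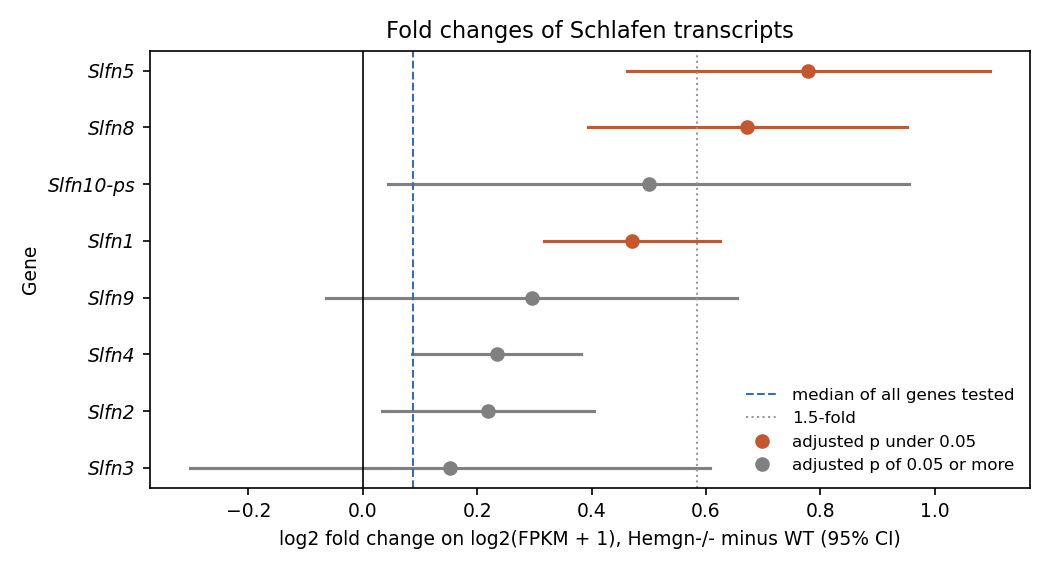
Log2 fold changes (Hemgn-/- minus WT on log2(FPKM + 1)) of the 7 Schlafen genes and the pseudogene Slfn10-ps, with bars for the 95% confidence interval. Slfn5, Slfn8 and Slfn1, in orange, passed an adjusted p under 0.05, and only the intervals of Slfn9 and Slfn3 reach below 0.

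The makeup of the family's RNA was followed as each member's share of the summed FPKM. The summed FPKM of the 7 members was 1103, 1040 and 1092 in WT and 1323, 1304 and 1371 in Hemgn-/- libraries, a ratio of the means of 1.24. Slfn4 accounted for 48.3% to 51.6% of this sum in WT and 45.5% to 50.8% in Hemgn-/- libraries. Slfn5 made up 0.955% to 1.36% in WT and 1.66% to 1.69% in Hemgn-/- libraries, without overlap. The share of Slfn1 also did not overlap, at 18.4% to 19.7% in WT and 20.2% to 22.1% in Hemgn-/- libraries. The shares of the other 5 members overlapped between the groups, and no share was tested.

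Slfn14, a long member known as a ribosome-associated nuclease of platelets and reticulocytes, stood apart from the 7. It held 38, 7 and 37 fragments in the WT libraries and 0 in each Hemgn-/- library, and it did not pass the filter. Its mean of 0.289 FPKM in WT was 9.81-fold a floor of 3 fragments per library (0.0295 FPKM), but WT library 2 was at 0.0738 FPKM. This ratio is not a lower bound, since fragments of amplified cDNA are not independent molecules. The fit over all listed genes gave it an adjusted p of 0.219 from limma. The summed level of 10 erythroid markers moved the same way, at 465 to 554 FPKM in WT and 39.2 to 54.3 FPKM in Hemgn-/- libraries, and none of them was at 0 in all libraries. Of the 8 that passed the filter, 4 were lower and 0 higher, against 2.09% and 4.37% of all genes tested. The part of erythroid RNA in the difference of Slfn14 was not tested. Slfnl1, a distant relative on another chromosome, held 10 fragments in Hemgn-/- library 3 and 0 in the other 5 libraries.

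The members lie in 1 cluster on chromosome 11, spread over 335 kb (GRCm38 chr11:82951349-83286726, from Slfn5 to Slfn14). The members that rose were not adjacent as a group: Slfn9 lies between Slfn5 and Slfn8, and Slfn2 between Slfn8 and Slfn1. Beside Slfn5, the nearest protein-coding gene of another family, Unc45b, a myosin chaperone, was below the filter at 0 to 0.284 FPKM. Within 500 kb of the cluster, 28 genes outside the family were tested, 4 were higher and 0 lower, against 4.37% higher and 2.09% lower over all genes. These were Gm48467, which lies inside the cluster, Taf15, Ccl9 and Ccl6, named here after their values were seen.

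**Figure D4:**
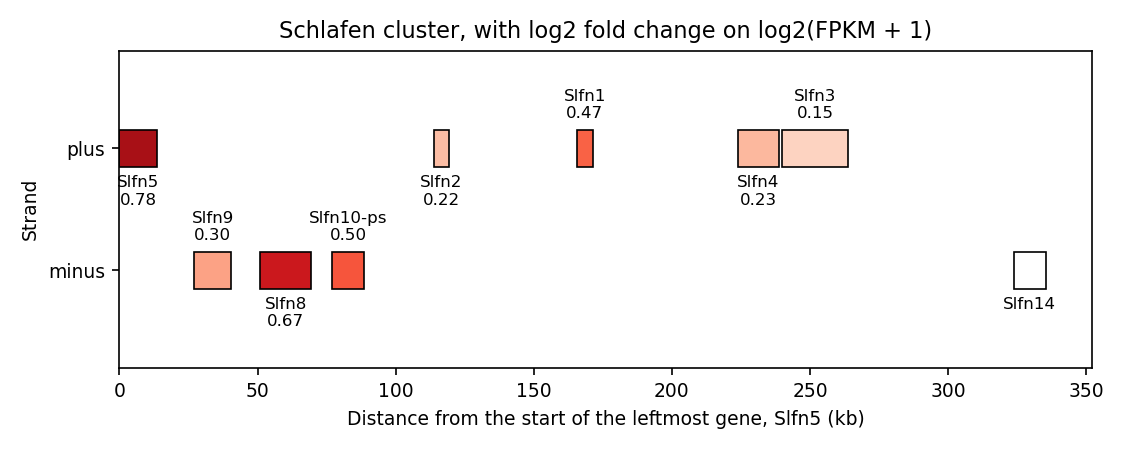
Map of the Schlafen cluster by strand, with distance in kb from the start of Slfn5, to scale. Darker red stands for a larger log2 fold change, which is written under or over each gene, and Slfn14, in white, was not tested in the main fit.

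Interferon-induced genes of other families were set beside the Schlafen members, from lists that were chosen with earlier results of these data known. Of 49 genes tested in a list of type I interferon-stimulated genes, 20 were higher and 1 was lower (against 4.37% and 2.09% of all genes), with a median log2 fold change of 0.42. The largest changes were those of the antiviral GTPase gene Mx1 (0.98), Oasl1 (0.82) and Ifi44 (0.81). At the low end Oas2 rose by 0.36 on this log2 scale, and Ube2l6, the conjugating enzyme for ISG15, fell by 0.63 (adjusted p = 0.00468 from limma). Of 37 genes tested in a list of IFN-γ response genes, 22 were higher and 0 lower, with a median of 0.56. The chemokine genes Cxcl10 (log2 fold change 1.32) and Cxcl9 (1.16) and the GTPase gene Gbp2 (1.10) changed most, and Nlrc5 and Irgm1 (both 0.48) least among those called. Slfn5 (0.78) and Slfn8 (0.67) lay between the lowest and highest called genes of the IFN-γ list, and Slfn1 (0.47) lay just below the lowest of them. All 3 lay between the lowest and highest genes called higher in the type I list, Oas2 (0.36) and Mx1 (0.98). The low end of each range depends on the threshold for a call, so these positions do not separate the 2 lists.

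The median was 0.26 among 18 genes of interferon receptors and their signal transducers. Of these, 5 were higher and 0 lower (against 4.37% and 2.09% of all genes). They were the feedback inhibitors Socs3 (log2 fold change 0.83) and Usp18 (0.69), the receptor chains Ifngr2 (0.45) and Ifnar1 (0.45), and the phosphatase gene Ptpn6 (0.39). A list of genes for interferon-linked RNA turnover held nucleases and, beside them, the ribonuclease inhibitor gene Rnh1, the kinase genes Eif2ak2 and Eif2ak4 and the RNA-binding cofactor gene Zc3hav1. Its 14 tested genes had a median of 0.21, and 2 of them were higher and 0 lower (against 4.37% and 2.09% of all genes). These were Khnyn (0.44) and Samhd1 (0.42). The type I list shares 1 gene with the IFN-γ list and 4 with the receptor list, so the counts are not independent. Without Hemgn-/- library 3 the number called higher was 11 in the type I list, 14 in the IFN-γ list, 2 in the receptor list and 0 in the RNA turnover list, and without WT library 3 it was 3 in the receptor list and 1 in the RNA turnover list. Without Hemgn-/- library 1 or library 2 it was 1 in the RNA turnover list.

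**Figure D5:**
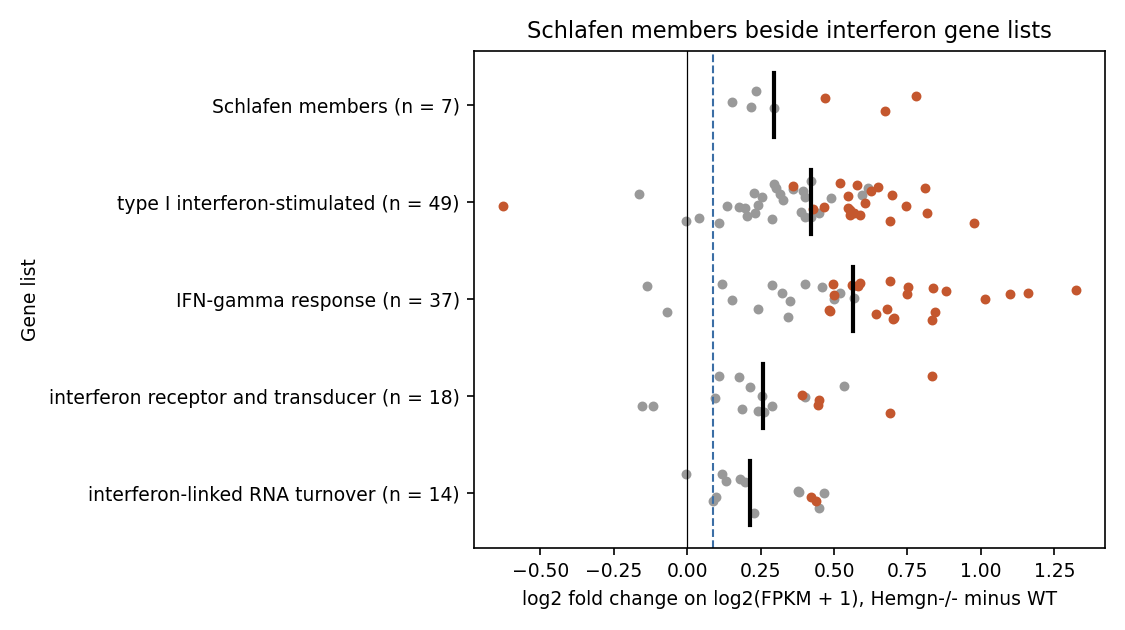
Log2 fold changes (Hemgn-/- minus WT on log2(FPKM + 1)) of the Schlafen members and of 4 interferon gene lists, 1 point per gene tested, with orange for an adjusted p under 0.05, a black line at the median of each list and a dashed line at the median of all genes. The Schlafen median of 0.30 lies below those of the type I (0.42) and IFN-γ (0.56) lists.

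Marker genes of other blood cells also differed between the groups. The counts below stand beside 4.37% higher and 2.09% lower over all genes tested. The summed level of 10 B cell markers was 2195 to 2317 FPKM in WT and 2607 to 2845 FPKM in Hemgn-/- libraries, with 6 of 10 tested genes higher and 0 lower. For 10 plasmacytoid dendritic cell markers it was 347 to 352 FPKM and 454 to 527 FPKM, with 5 of 10 higher and 0 lower. Irf8, one of these 5, was also among the called genes of the IFN-γ list, and Bst2 was also in the type I list, so these counts are not independent. For 15 T and NK cell markers it was 317 to 349 FPKM and 383 to 395 FPKM, with 2 of 15 higher and 0 lower. The summed level of macrophage and monocyte markers overlapped, at 644 to 671 FPKM in WT and 582 to 682 FPKM in Hemgn-/- libraries. Most of this sum came from Ly6c2 and Cd14. Of the 12 genes 3 were higher, Ccr2 (log2 fold change 1.00), Adgre1 (0.51) and Csf1r (0.50), and 1 was lower, C1qb (-0.44). Of the 14 neutrophil markers 1 was higher (Cxcr2) and 5 were lower (Mpo, Elane, Ltf, Camp and Ngp). Of 6 tested endothelial markers 0 were called. No marker of any list was at 0 in all 6 libraries, and the part of other cells in the Schlafen differences was not tested.

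Over the 6 libraries, the mean log2(FPKM + 1) of the 7 members was closely followed by Arpc5l (Pearson r = 0.999), Spatc1 (0.996), Gm7665 (0.996) and Ogt (0.995), out of 6285 genes with a mean of at least 5 FPKM. The 6 points share their libraries and fall into the 2 genotypes, so these values describe likeness of pattern alone. Arpc5l, a subunit of the actin-nucleating Arp2/3 complex, was at 11.6 to 12.5 FPKM in WT and 15.2 to 15.5 FPKM in Hemgn-/- libraries, and Ogt, the O-GlcNAc transferase gene, at 28.5 to 31.2 FPKM and 42.1 to 43.1 FPKM.

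Scaling between libraries moved the balance of calls over the whole table. After median-ratio scaling 341 genes were higher and 386 lower, after quantile normalization 369 and 350, and after rescaling to TPM 1049 and 238, against 600 and 287 without scaling. These 3 scalings called 3, 3 and 5 of the 7 members higher and 0 lower. Voom on recovered fragments, which changes the input and the weights as well as the scaling, called 361 genes higher and 454 lower, and 3 members higher and 0 lower. The log2 fold change was above 0 for each of the 7 members under all 15 alternatives, the smallest being 0.02 for Slfn3 without Hemgn-/- library 1.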

How the data were processed

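RNA-seq of sorted donor HSPCs was analysed from 3 WT and 3 Hemgn-/- libraries, grouped by the genotype in the labels. The authors deposited FPKM per gene, 1 column per library. The submitters' processing notes name HISAT2 2.1.0, TopHat2, Bowtie2 2.2.3, HTSeq 0.6.0 and GRCm38 without saying which made the table. The methods describe Smart-Seq2 cDNA, the labels another kit. Symbols came from GENCODE M21 by Ensembl identifier (24921 of 24965 genes matched). FPKM rose in whole steps, so fragment totals were recovered with GENCODE exon lengths, and 95.7% of 13472 low genes came out whole (tolerance 0.05) in all 6 libraries. Fragments of amplified cDNA are not independent molecules. Replicates differed by 17.5 to 35.2 chi-square units per gene, so none was a copy.

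Values were taken as log2(FPKM + 1), which understates changes of low genes. Filtering on FPKM above 1 in 1 library or more left 13739 genes for limma 3.58.1, run in R 4.3.3 (eBayes with trend, two-sided, no covariate), with Benjamini-Hochberg adjustment over all of them. The method was tested on simulated data. The members and gene lists were chosen with earlier results of these data known. Named genes were the 7 members, Hemgn, other Schlafen loci, the nearest coding neighbours, the 3 highest and 2 lowest called genes of each list, and the 5 genes most like the members. Some genes that this rule names are not reported here. Alternatives were another pseudocount (0.1), 2 other filters, 3 scalings, eBayes without trend, voom on recovered fragments, a replicate block and leaving out each library. Promoters came from RefSeq, and coding sequences from GENCODE transcripts aligned in Python 3.11.15. No column was left unmapped (0 columns).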

Additional observations from a re-analysis of the deposited data

How the results depend on the processing

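All 7 members kept a log2 fold change above 0 under every one of the 15 alternatives, while the calls depended on several of them. The number of members called higher was 1 without the filter on low values, 5 after rescaling to TPM and 0 with eBayes without trend, where 3 members had an unadjusted p under 0.05, and it ranged from 1 to 3 with 1 library left out. At p under 0.05 and 1.5-fold it was 1 after median-ratio scaling and 1 with voom, and 1 to 2 with 1 library left out. Slfn1 stayed at 0.47 with an adjusted p from limma of 0.0651 with eBayes without trend. Slfn5 stayed at 0.78, with 0.0569 without the filter and 0.0587 without trend, and ranged from 0.62 to 0.89 with 1 library left out. Slfn8 stayed at 0.67, with 0.0621 and 0.0699, and ranged from 0.57 to 0.81. After rescaling to TPM, Slfn2 was at 0.31 and Slfn4 at 0.32. Both were lower after median-ratio scaling (0.12 and 0.13) and with voom (0.11 and 0.13), and Slfn4 also after quantile normalization (0.13). With 1 library left out Slfn4 ranged from 0.20 to 0.29, Slfn2 from 0.14 to 0.27, Slfn9 from 0.20 to 0.42 and Slfn3 from 0.02 to 0.26. The cause of these shifts was not tested. Without the filter, 24965 genes were tested in place of 13739.

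With eBayes without trend the genes called higher were 8 in the type I list, 1 in the receptor list and 0 in the RNA turnover list. After rescaling to TPM 10 genes of the receptor list were called. In the RNA turnover list 0 were called after median-ratio scaling, 1 after quantile normalization and 1 without the filter. With 1 library left out the counts ranged from 11 to 19 (type I), 14 to 22 (IFN-γ), 2 to 5 (receptor) and 0 to 2 (RNA turnover). Whole-table calls were 237 higher and 153 lower with eBayes without trend.

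The numbers of the libraries did not pair them: same-numbered libraries deviated together with correlations of -0.043, -0.009 and 0.011. With the replicate block 3 members were called higher and 1 gene of the RNA turnover list, and 410 genes rose and 226 fell over the whole table. Members at few fragments, Slfn3 with 91 to 186 per library above all, had intervals too wide to place a change under 1.5-fold.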
